A study of Mus musculus with 8 samples.

Results

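Heat shock proteins and J-domain proteins are the cell's chaperones, and their mRNAs were followed here in mouse aortic smooth muscle cells that received a moR-21 mimetic. All genes were taken whose symbol in the deposited array table names a member of the Hsp70, Hsp90, Hsp60/Hsp10 or small heat shock protein families, or a J-domain protein of class A, B or C. Hspa5, Hsp90b1 and Dnajb9, which serve protein folding in the endoplasmic reticulum, were left out of the set. The rule found 58 genes among the 18138 symbols of the table, and 36 of them were detected, out of 8727 detected symbols. Hspbap1 was taken in by the letters of its symbol, and it encodes a protein that binds small heat shock proteins rather than a chaperone.

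MoR-21 is a small RNA cut from the primary transcript of miR-21 next to the miRNA itself, and the mimetic is a synthetic RNA with its sequence. Primary smooth muscle cells were grown out of pieces of several mouse aortas. Whether cells of different animals were pooled was not stated for the arrays. The age of these animals and the strain of the cultured cells were not stated either. Both groups were transfected with RNAiMAX, a lipid reagent, at a final concentration of 5 nM. The control group (3 samples) received a scrambled oligonucleotide and the other group (3 samples) the moR-21 mimetic, and RNA was collected 48 h later. The labels call the samples triplicates without saying that they came from separate cultures, so p-values measure only the spread between these samples, which may be technical. Of the 6 samples, control 1 and moR-21 3 were hybridized in duplicate (8 arrays in all), and their arrays were averaged. A short description in the labels calls the cells aortic endothelial cells, whereas the cell type field calls them smooth muscle cells.

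Median intensity was between 102.5 and 109.2 on the arrays, with 10285 to 10512 detected probes each. Of 10 smooth muscle markers on the array 7 were detected. Acta2, the smooth muscle actin, had a log2 signal of 13.18 in controls and was up-regulated by 0.40 on the log2 scale (adjusted p = 2.1e-05), while Tagln lay near the background (6.74 in controls, 6.94 with moR-21) and Cnn1, Myh11 and Myocd were not detected. Des, the muscle intermediate filament protein desmin, differed by -0.38 with samples apart (adjusted p = 8.6e-05), just under the fold cutoff, and Smtn (-0.05), Lmod1 (0.05), Cald1 (-0.00093) and Tpm2 (0.04) were close to 0. Of 7 endothelial markers only Vwf was detected, at 6.89 and 6.94, and Pecam1, Cdh5, Kdr, Tek, Tie1 and Emcn were not. Of 5 macrophage markers only Csf1r was detected, at 6.87 and 6.85. All 3 fibroblast markers were detected, and Lum was down-regulated by 0.56, with differences of -0.22 for Dcn and -0.17 for Pdgfra. Of 4 mesothelial markers 2 were detected, of which Upk3b was down-regulated by 1.24 and Krt19 differed by -0.13. The part that these marker differences have in the chaperone values was not tested.

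Chaperones bind proteins that are not in their folded state and keep them from clumping. Hsp70 proteins bind short exposed stretches and let them go in a cycle driven by ATP. J-domain proteins bring clients to Hsp70 and make it hydrolyse ATP, and Hsp110 proteins such as Hsph1 exchange its nucleotide. Hsp90 acts later on kinases, steroid receptors and other nearly folded clients, small heat shock proteins hold unfolded ones without ATP, and Hsp60 with its lid Hsp10 forms a folding chamber in mitochondria. Under stress the transcription factor Hsf1 binds heat shock elements in the promoters of many of these genes and raises them together. In smooth muscle, Hspb1 and Hspb6 are also known for their ties to actin and to contraction.

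The heat shock element is shown first because it is the sequence that Hsf1 recognises, and it lies in the promoters of several genes described here. Its core is an alternation of GAA and TTC units, searched as GAANNTTCNNGAA and TTCNNGAANNTTC on both strands, and matches of both forms could overlap. RefSeq promoter windows of the mouse build GRCm38.p6, from 250 bases before to 50 after each gene's start, were available for 45 of the 58 genes. The element was found in the windows of 3 of these 45 genes (6.67%), Dnajb6, Hspd1 and Hspe1, and of 179 of 27025 genes in all (0.662%). All 3 were among the 28 detected genes with a window. The matched bases are in capitals below, the Hspd1 stretch on the minus strand at chr1:55088019-55088116 and the Dnajb6 stretch on the plus strand at chr5:29735812-29735897.
Hspd1: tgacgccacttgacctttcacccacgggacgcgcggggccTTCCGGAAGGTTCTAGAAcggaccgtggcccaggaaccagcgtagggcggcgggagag
Dnajb6: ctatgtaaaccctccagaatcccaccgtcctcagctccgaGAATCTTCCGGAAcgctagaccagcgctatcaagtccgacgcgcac

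The capitals in the Hspd1 stretch hold 2 overlapping matches, 144 to 127 bases before its start. Hspe1 is transcribed the other way from the same stretch, and the same bases lie 89 to 72 before its own start. The Dnajb6 match lay 46 to 34 bases before one RefSeq start and 127 to 115 before another. A window without a match says only that these letters are not in it.

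No chaperone gene of the set was called in the comparison of moR-21 mimetic with scrambled control, which asked how the mimetic changed gene expression. Calls required a change of more than 1.3-fold with a limma adjusted p under 0.002, the cutoffs of the study's methods. By these cutoffs 0 of 36 genes were called lower and 0 were called higher, while 4.38% of all 8727 detected genes were called lower and 3.41% higher. Hspb1 came nearest, and it was called lower, alone among the set, when control sample 3 was left out or when array A alone stood for the repeated samples. At an unadjusted limma p under 0.05 there were 4 lower and 10 higher genes, 14 of 36 (38.9%), against 44.6% of all genes. The samples of the groups did not overlap for 4 lower and 8 higher genes, 12 of 36 (33.3%), against 46.3% of all genes. With 3 samples against 3, an exact two-sided permutation test of a single gene cannot give a p below 0.1.

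**Figure D1:**
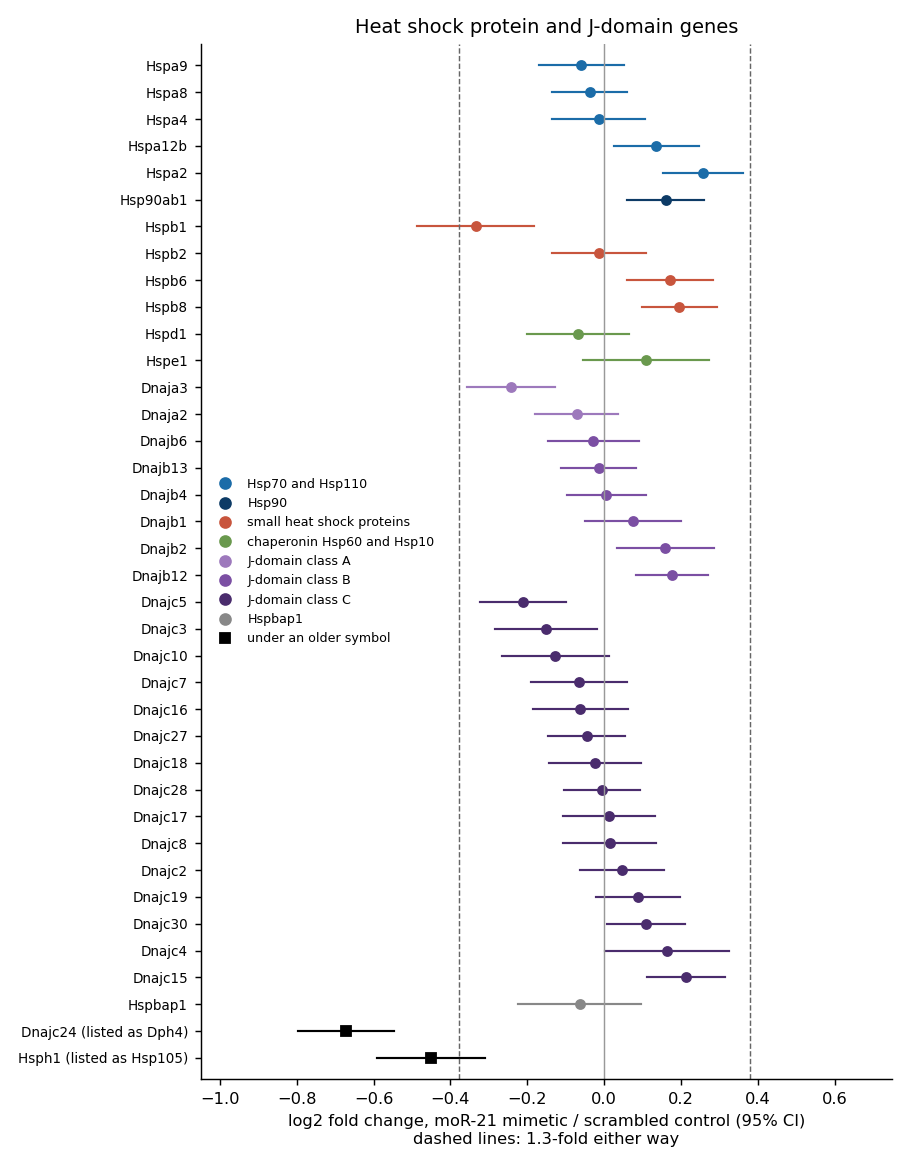
Log2 fold change of each detected gene, moR-21 mimetic over scrambled control (x axis), with its 95% confidence interval from limma (3 samples in each group), coloured by family; dashed lines mark a 1.3-fold change and black squares the genes listed under an older symbol. At their brightest probes the 36 genes of the set lie between -0.33 and 0.26, and Hsph1 and Dnajc24 lie lower.

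Read at the brightest probe of each gene, the differences within the set were small. The median log2 fold change was -0.01 over the 36 genes and 0.01 over all detected genes, and the median size without sign was 0.07 against 0.10. Values ran from -0.33 for Hspb1 to 0.26 for Hspa2, with standard errors between 0.044 and 0.076. A change over 1.2-fold was read for 1 of 36 genes (2.78%), against 16.3% of all genes, and one over 1.3-fold for 0 of 36, against 7.81%. A dimmer Dnajb6 probe, not counted here, gave 0.33, and its interval (0.21 to 0.45) reached past a 1.3-fold change. The 95% confidence interval lay wholly within a 1.3-fold change either way for 35 of 36 genes (97.2%), Hspb1 being the exception, against 83.4% of all genes. That count was 24 of 36 after normexp background correction, under which the median standard error of the 36 genes went from 0.053 to 0.084 and the median size of the log2 fold change from 0.07 to 0.11. The count therefore depends on the uncorrected scale.

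**Figure D2:**
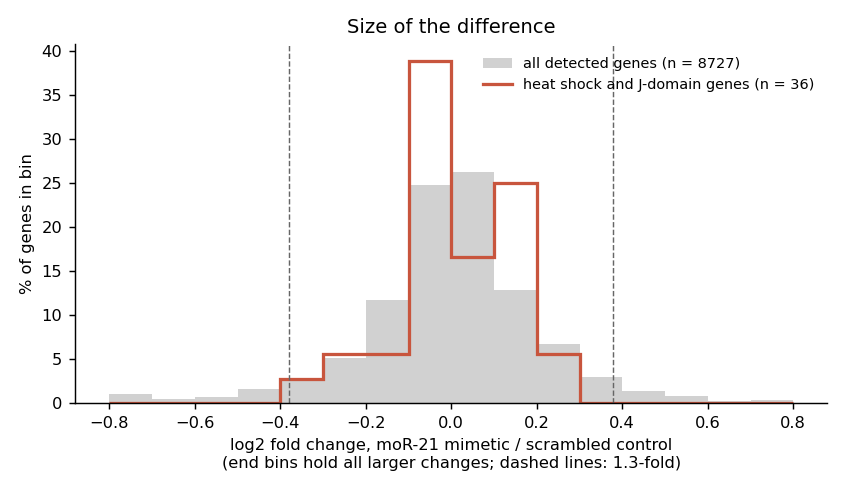
Percentage of genes (y axis) in bins of the log2 fold change, moR-21 mimetic over scrambled control (x axis), for the 36 detected heat shock and J-domain genes (red line) and all 8727 detected genes (grey); end bins hold all larger changes and dashed lines mark a 1.3-fold change. None of the 36 lies beyond the dashed lines, against 7.81% of all genes.

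Some chaperone genes had a limma adjusted p under 0.05 with a difference below the fold cutoff, a smaller share than among all genes. With an adjusted p under 0.05 and no fold cutoff, a setting chosen after the values were seen, 3 genes were lower (Hspb1, Dnaja3 and Dnajc5) and 6 were higher (Hspa2, Hsp90ab1, Hspb6, Hspb8, Dnajb12 and Dnajc15). The same setting gave 17.3% of all genes lower and 18.8% higher, so that 9 of 36 (25.0%) compares with 36.1% of all genes. Read at the brightest probe of each gene, Hspa2 alone passed the adjusted p cutoff of 0.002, against 17.1% of all genes. A dimmer Dnajb6 probe, described below, also passed it (limma adjusted p = 0.00042). Of the 9 genes, Hspa2, Hspb8, Dnajb12, Dnajc15, Dnaja3 and Dnajc5 stayed under 0.05 in all 16 alternative fits, and the other 3 did not, as given with each below.

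**Figure D3:**
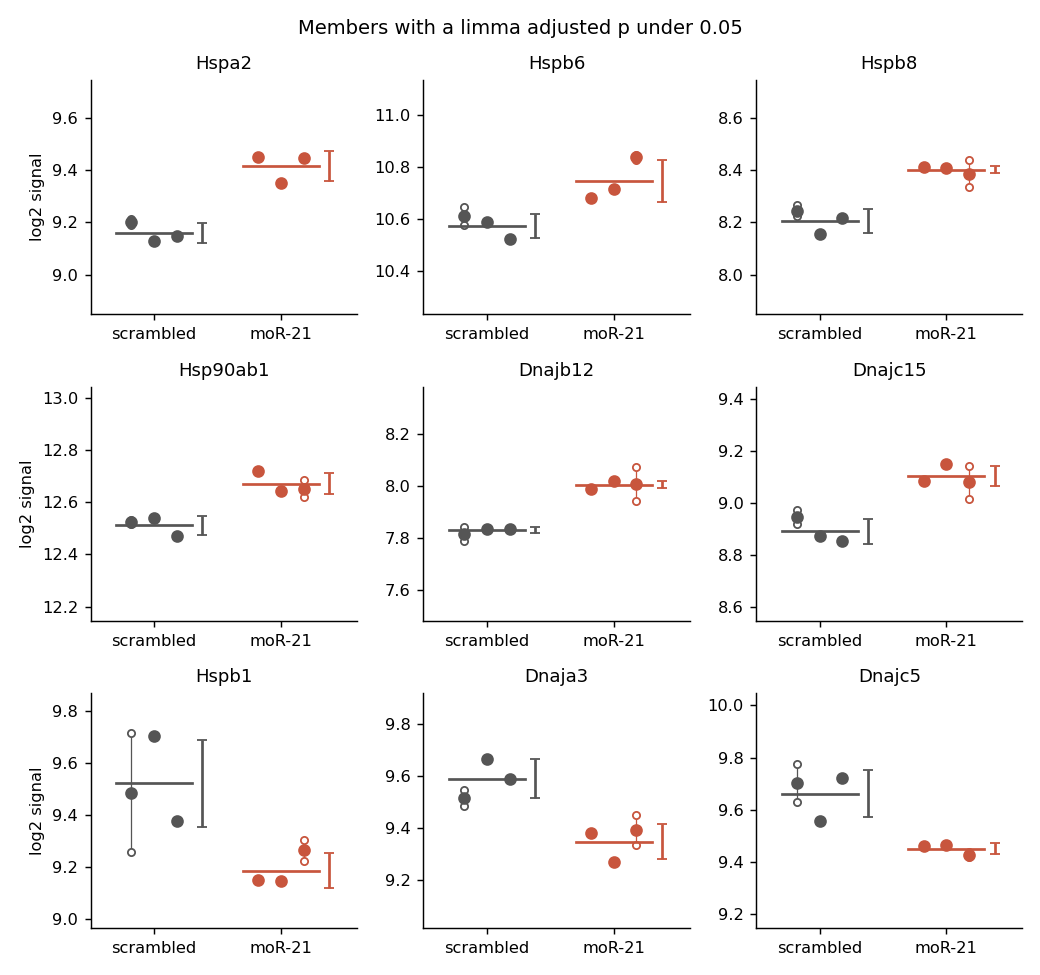
Log2 signal (y axis, quantile normalized) of the 9 genes with a limma adjusted p under 0.05 in scrambled control and moR-21 samples: filled points are samples, open points the paired arrays of control 1 and moR-21 3, horizontal lines group means, and brackets the SD of 3 samples. Each panel spans its own range, and in all 9 genes the samples of the groups are apart, but in Hspb1 the arrays are not.

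Of the Hsp70 and Hsp110 family, 5 of 11 genes were detected and their values ran from -0.06 to 0.26. Hspa2 is an Hsp70 known for its role in sperm formation and is expressed in other tissues at lower levels. Its log2 signal was 9.20, 9.13 and 9.15 in control samples 1 to 3 and 9.45, 9.35 and 9.45 in moR-21 samples 1 to 3. Every moR-21 sample was above every control sample, and the means, 9.16 ± 0.038 and 9.42 ± 0.057 (SD, n = 3), differed by 0.26 (SE 0.048, adjusted p = 0.000864), a fold change of 1.195. The probe for its other annotated transcript variant was dimmer and gave 0.12 (adjusted p = 0.068).

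Hspa8, the Hsc70 protein present in nearly all cells, read 12.85, 12.90 and 12.84 in controls and 12.82, 12.79 and 12.86 with moR-21. The groups overlapped, with a difference of -0.04 (SE 0.045, adjusted p = 0.582) that had the other sign under median scaling (0.05) and cyclic loess (0.03). Hspa9, the mitochondrial Hsp70, read 11.94, 11.84 and 11.92 in controls and 11.80, 11.92 and 11.80 with moR-21. Its groups also overlapped (-0.06, SE 0.052, adjusted p = 0.421), and its second probe gave -0.03. Hspa12b, a distant relative of Hsp70 with a role in blood vessels, differed by 0.14 with groups that did not overlap (adjusted p = 0.058) at a dim signal of 7.12 in controls. Hspa4, an Hsp110 protein, differed by -0.01 and was detected on 6 arrays. The stress-inducible Hspa1a was not detected.

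Of the Hsp90 pair, Hsp90ab1, the constitutive cytosolic form, was detected, and the stress-inducible Hsp90aa1 was not. Hsp90ab1 read 12.52, 12.54 and 12.47 in control samples and 12.72, 12.64 and 12.65 in moR-21 samples. All moR-21 samples were above all controls, with means of 12.51 ± 0.037 and 12.67 ± 0.041 (SD, n = 3) and a difference of 0.16 (SE 0.046, adjusted p = 0.016). Its dimmer probes gave 0.16 (adjusted p = 0.082) and 0.08 (adjusted p = 0.397) with overlapping arrays. The adjusted p of the brightest probe was 0.0999 after normexp correction, and it passed 0.05 in 13 of 16 alternative fits, missing it also without control 3 and without moR-21 sample 1.

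The small heat shock proteins, with 4 of 6 genes detected, held values from -0.33 to 0.20. Hspb1 (Hsp27 in human), which binds unfolded proteins and modulates actin filaments, read 9.49, 9.70 and 9.37 in controls and 9.15, 9.14 and 9.26 with moR-21. The samples of the groups were apart, with means of 9.52 ± 0.17 and 9.19 ± 0.067 (SD, n = 3) and a difference of -0.33 (SE 0.071, 95% confidence interval -0.49 to -0.18, adjusted p = 0.0022). The paired arrays of control 1, however, read 9.71 and 9.26, a gap of 0.46 that was the largest between those arrays for any gene of the set and exceeded the difference between the groups. The lower of these arrays lay below a moR-21 array at 9.30. With array A alone the difference was -0.42 and passed both cutoffs, as it did without control 3 (-0.41), and with array B alone it was -0.25 (adjusted p = 0.057).

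Hspb8, which works with Bag3 in clearing misfolded proteins, read 8.25, 8.16 and 8.22 in controls and 8.41, 8.41 and 8.39 with moR-21. No array of either group crossed into the other, and the difference was 0.20 (SE 0.046, adjusted p = 0.0042). Hspb6, the Hsp20 protein of smooth muscle relaxation, read 10.61, 10.59 and 10.52 in controls and 10.68, 10.72 and 10.84 with moR-21. Its groups were apart by a smaller margin, with a difference of 0.17 (SE 0.052, adjusted p = 0.021) that passed 0.05 in 12 of 16 alternative fits and reached 0.104 at most. Hspb2, a muscle member of the family, differed by -0.01.

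The mitochondrial chaperonin genes were both detected, and neither had an adjusted p under 0.05. Hspd1 (Hsp60) read 9.39, 9.31 and 9.57 in controls and 9.29, 9.38 and 9.39 with moR-21 (-0.07, SE 0.061, adjusted p = 0.440), and its dimmer probe gave -0.10 (adjusted p = 0.136) with samples that did not overlap. Hspe1 (Hsp10) read 7.56, 7.45 and 7.80 in controls and 7.75, 7.60 and 7.79 with moR-21 (0.11, SE 0.076, adjusted p = 0.311). The Hspe1 value rested on single samples, being 0.21 (adjusted p = 0.024) without control 3 and 0.034 without control 2. At the brightest probes the groups overlapped in both genes, which share the promoter stretch with the heat shock elements printed above.

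Of the class A J-domain proteins, the closest to bacterial DnaJ, 2 of 3 genes were detected. Dnaja3, the mitochondrial partner of Hspa9, read 9.52, 9.66 and 9.59 in control samples and 9.38, 9.27 and 9.39 in moR-21 samples. Every array of the moR-21 group was below every control array, with means of 9.59 ± 0.074 and 9.35 ± 0.068 (SD, n = 3) and a difference of -0.24 (SE 0.053, adjusted p = 0.0029), a fold change of 1.18. Across the 16 alternative fits it stayed between -0.28 and -0.20. Dnaja2, a cytosolic partner of Hsc70, read 7.40, 7.27 and 7.32 in controls and 7.27, 7.21 and 7.30 with moR-21. Its groups overlapped (-0.07, SE 0.051, adjusted p = 0.313). The stress-inducible Dnaja1 was not detected.

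Of the class B genes 6 of 10 were detected, with values from -0.03 to 0.18 at their brightest probes. Dnajb12, a J-domain protein of the endoplasmic reticulum membrane, read 7.82, 7.83 and 7.84 in controls and 7.99, 8.02 and 8.01 with moR-21. Its samples were close together within each group, and the difference was 0.18 (SE 0.044, adjusted p = 0.0062). Dnajb1, the stress-inducible Hsp40 that pairs with cytosolic Hsp70, read 9.77, 9.77 and 9.91 in controls and 9.94, 9.78 and 9.95 with moR-21. Those groups overlapped (0.07, SE 0.058, adjusted p = 0.371). Dnajb2, known from neurons, differed by 0.16 with overlapping samples (adjusted p = 0.051), and Dnajb4 and Dnajb13 differed by 0.01 and -0.01 and were detected on 1 array each.

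Dnajb6, which keeps aggregation-prone proteins soluble, was the gene whose probes disagreed most. The brightest probe, annotated to transcript variant 2, read 8.94, 8.97 and 9.08 in controls and 9.004, 8.88 and 9.02 with moR-21, a difference of -0.03 (SE 0.055, adjusted p = 0.746). The dimmer probe, annotated to transcript variant 1, read 8.35, 8.17 and 8.33 in controls and 8.67, 8.60 and 8.56 with moR-21. At that probe all moR-21 arrays were above all control arrays, and the difference was 0.33 (SE 0.056, 95% confidence interval 0.21 to 0.45, adjusted p = 0.00042), a fold change of 1.25 that stayed under the fold cutoff. It was between 0.27 and 0.42 in the 16 alternative fits and passed both cutoffs in 1 of them, array B alone. The difference between the 2 probes' changes was not itself tested.

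**Figure D4:**
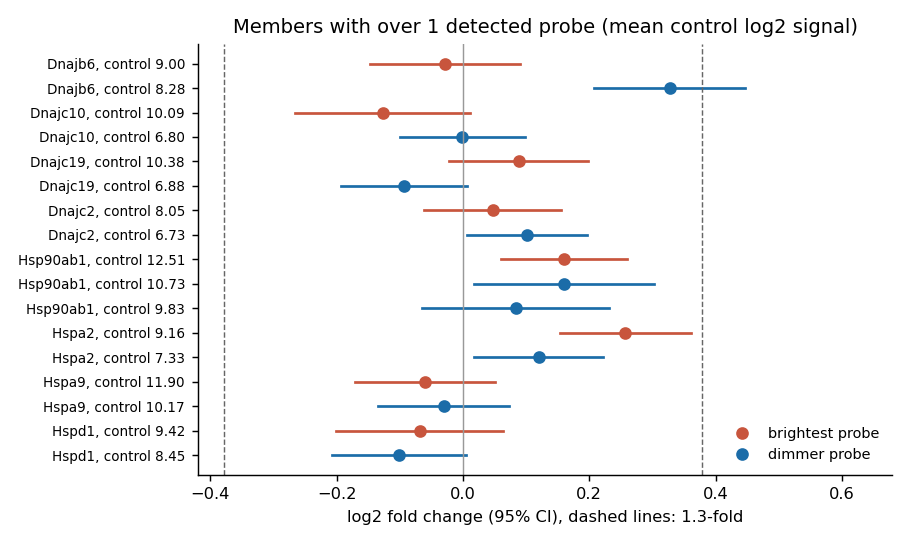
Log2 fold change, moR-21 mimetic over scrambled control (x axis), with its 95% confidence interval from limma (3 samples in each group), for every detected probe of the genes with more than 1; red marks the brightest probe, blue dimmer ones, and each label gives the mean log2 signal in controls. The Dnajb6 probes stand at -0.03 and 0.33, while those of Hsp90ab1 and Hspa2 lie on the same side of 0.

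Class C, the J-domain proteins that share little beyond the J domain, had 15 of 23 genes detected and a median of -0.01. Dnajc15, a protein of the mitochondrial inner membrane near the import motor, read 8.94, 8.87 and 8.86 in controls and 9.08, 9.15 and 9.08 with moR-21. All moR-21 arrays were above the control arrays, and the difference was 0.21 (SE 0.047, adjusted p = 0.0030). Dnajc19, another protein of the mitochondrial inner membrane, differed by 0.09 at its brightest probe and by -0.09 at a probe near the background, with no adjusted p under 0.05. Dnajc30 and Dnajc4, also mitochondrial, differed by 0.11 (adjusted p = 0.092, samples apart) and 0.16 (adjusted p = 0.112, samples overlapping). Without moR-21 sample 1 Dnajc4 gave 0.24 (adjusted p = 0.018).

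Dnajc5, the cysteine string protein of secretory vesicles, read 9.70, 9.56 and 9.72 in controls and 9.46, 9.46 and 9.43 with moR-21. Every moR-21 array was below every control array, with a difference of -0.21 (SE 0.052, adjusted p = 0.0060). Dnajc3, the p58IPK protein of the endoplasmic reticulum stress response, read 8.98, 8.99 and 8.90 in controls and 8.90, 8.66 and 8.86 with moR-21. Its groups lay apart by a narrow margin (-0.15, SE 0.061, adjusted p = 0.074). Dnajc10, a reductase of the endoplasmic reticulum, differed by -0.13 (adjusted p = 0.152), which became -0.20 (adjusted p = 0.021) without moR-21 sample 1. The other 8 class C genes (Dnajc2, Dnajc7, Dnajc8, Dnajc16, Dnajc17, Dnajc18, Dnajc27 and Dnajc28) lay between -0.07 and 0.05. At their brightest probes the samples of the groups overlapped. Dnajc8 was detected on 4 arrays and Dnajc28 on 1, both near the background. A dimmer Dnajc2 probe, detected on 2 arrays, gave 0.10 (adjusted p = 0.093), with every moR-21 array above every control array. Hspbap1 differed by -0.06, and by -0.17 (adjusted p = 0.017) without moR-21 sample 2.

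The genes were also read by where their proteins work or how they are induced. Of a list of genes that respond to heat, 9 of the 13 found on the array by their listed symbols were detected. In this list Hsp90ab1 and Hspa8 are mainly constitutive. The median log2 fold change was 0.01, with 1 lower (Hspb1) and 2 higher (Hsp90ab1 and Hspb8) at an unadjusted limma p under 0.05. The 5 detected genes of the endoplasmic reticulum had a median of -0.06, with 1 lower (Dnajc3) and 1 higher (Dnajb12) at that p. The 9 detected genes of mitochondria had a median of 0.09, with 1 lower (Dnaja3) and 3 higher (Dnajc4, Dnajc15 and Dnajc30). These counts are 33.3%, 40% and 44.4% of the heat-inducible, endoplasmic reticulum and mitochondrial lists, against 44.6% of all genes. None of the genes counted in these 3 lists was past both cutoffs. The heat list also names Hsph1, which the array lists under an older symbol. Hsph1 was left out of these counts and was called lower, as given below.

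The array table lists some genes under older names, and 2 of these have a current RefSeq symbol that fits the rule. Both were down-regulated. Hsph1, the stress-inducible Hsp110 that exchanges the nucleotide of Hsp70, is listed as Hsp105 and read 8.56, 8.39 and 8.60 in controls and 8.09, 7.95 and 8.17 with moR-21. All of its moR-21 arrays were below all control arrays, with a difference of -0.45 (SE 0.065, adjusted p = 0.00011), a fold change of 1.37. Under median scaling the value was -0.45 with an adjusted p of 0.0032, too high for a call, and in the other 15 alternative fits it was called. A heat shock element lay 15 to 27 bases after a RefSeq start of the gene, in capitals below (minus strand, chr5:149636280-149636308).
Hsph1: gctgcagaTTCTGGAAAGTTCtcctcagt

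Dnajc24, a J-domain protein of diphthamide synthesis, the modification of elongation factor 2, is listed as Dph4. It read 8.16, 8.35 and 8.26 in controls and 7.52, 7.67 and 7.56 with moR-21, with no overlap at any array. The difference was -0.67 (SE 0.058, adjusted p = 9.7e-07), a fold change of 1.59, and it was called lower in all 16 alternative fits. A second probe of the gene was not detected. With these genes counted, a choice made after the values were seen, 2 of 38 were called lower, against 4.38% of all genes.

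The partners of the chaperones were read from a list of co-chaperone and heat shock factor genes, of which 34 of 37 on the array were detected. Of these, 2 were called lower and 0 higher, with a median log2 fold change of -0.01, and the share called lower, 5.88%, stood beside 4.38% of all genes. At an unadjusted limma p under 0.05 there were 8 lower and 3 higher, 32.4% against 44.6% of all genes. Bag3, the nucleotide exchange factor that links Hsp70 to Hspb8 and to autophagy, read 11.48, 11.49 and 11.33 in controls and 11.07, 11.02 and 10.92 with moR-21. It was down-regulated by 0.43 (SE 0.056, adjusted p = 4.7e-05), a fold change of 1.35, with every array apart. Sec63, the J-domain protein of the translocon in the endoplasmic reticulum, read 9.22, 9.32 and 9.31 in controls and 8.71, 8.72 and 8.68 with moR-21. It was down-regulated by 0.58 (SE 0.047, adjusted p = 5.2e-07), a fold change of 1.49. Both were called in all 16 alternative fits.

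**Figure D5:**
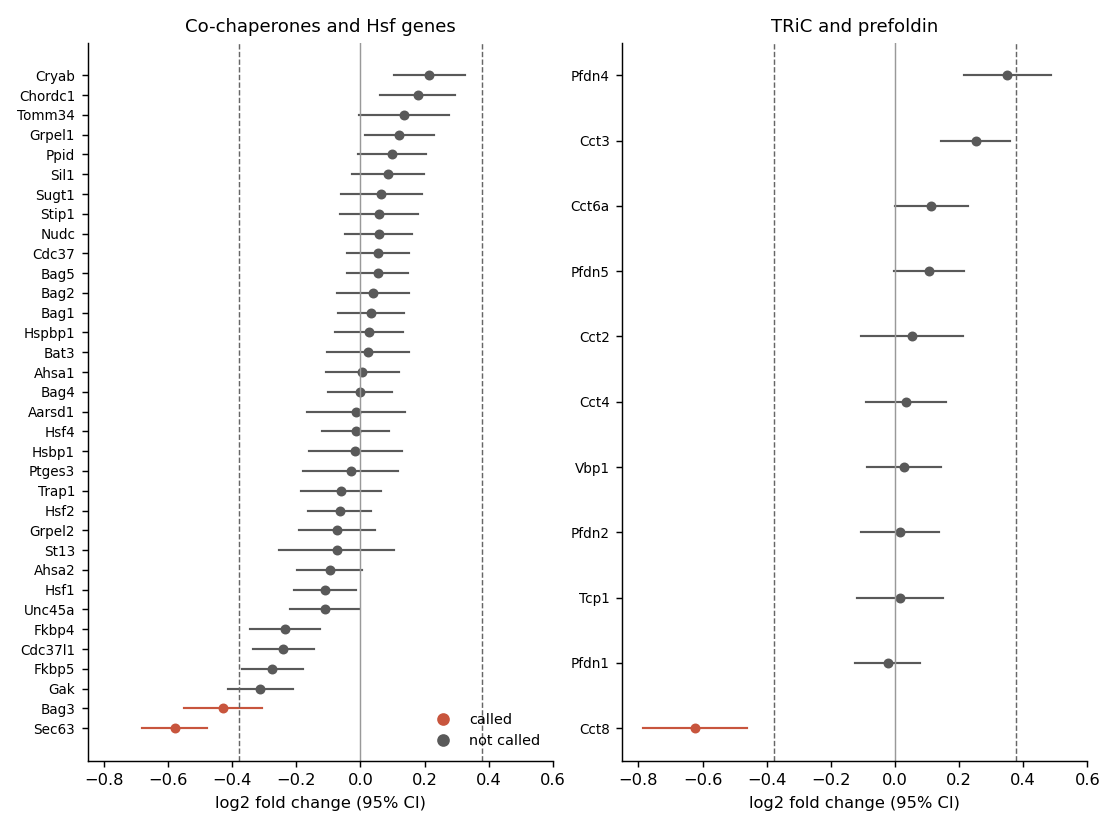
Log2 fold change, moR-21 mimetic over scrambled control (x axis), with its 95% confidence interval from limma (3 samples in each group), for the 34 detected co-chaperone and heat shock factor genes (left) and the 11 detected TRiC and prefoldin genes (right); dashed lines mark a 1.3-fold change and red the called genes. Sec63, Bag3 and Cct8 lie below -0.4 and most others lie near 0.

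Hsf1, the regulator of the heat shock response, read 10.41, 10.40 and 10.42 in controls and 10.34, 10.26 and 10.30 with moR-21. The samples were apart, but the difference was -0.11 (SE 0.045, adjusted p = 0.075). Under the fold cutoff, Gak, a J-domain kinase of clathrin uncoating, differed by -0.31 (adjusted p = 0.00015). Fkbp5 and Fkbp4, the immunophilin partners of Hsp90 on steroid receptors, differed by -0.27 (adjusted p = 0.00026) and -0.23 (adjusted p = 0.0026). Fkbp5 was called lower after normexp correction (-0.48, adjusted p = 0.00046). Cryab, the small heat shock protein alpha B-crystallin, differed by 0.21 (adjusted p = 0.0050).

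The cytosolic chaperonin TRiC, which folds actin and tubulin, and its partner prefoldin had 11 of 14 genes on the array detected. Cct8, a TRiC subunit, read 9.14, 9.36 and 9.35 in controls and 8.48, 8.72 and 8.77 with moR-21. It was down-regulated by 0.63 (SE 0.075, adjusted p = 2.2e-05), a fold change of 1.54, and was called lower in all 16 alternative fits. It was the 1 gene of this list called lower (9.09%, against 4.38% of all genes), and 0 were called higher (against 3.41%). Pfdn4 (0.35, adjusted p = 0.00063) and Cct3 (0.25, adjusted p = 0.0014) were past the p cutoff and under the fold cutoff, and Pfdn4 was called higher without moR-21 sample 1. The median over the 11 genes was 0.03.

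The remaining 22 genes of the set, with 28 probes, had no detected signal on any array, with log2 values between 6.49 and 6.82. They were Hspa1a, Hspa1l, Hspa4l, Hspa12a, Hspa13 and Hspa14 of the Hsp70 family, Hsp90aa1, Hspb3 and Hspb7, and the J-domain genes Dnaja1, Dnajb3, Dnajb5, Dnajb7, Dnajb8, Dnajc1, Dnajc5b, Dnajc5g, Dnajc6, Dnajc9, Dnajc11, Dnajc12 and Dnajc14. A probe without signal gives no fold change, so a difference in these genes was not detectable here.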

How the data were processed

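RNA from 3 scrambled control and 3 moR-21 mimetic samples was hybridized to Illumina mouse BeadChips. For each of 25697 probes the authors deposited a raw intensity and its detection p-value on each of 8 arrays, with no background correction stated. Every column could be tied to a sample by its name, and 0 were left over. Quantile normalization covered the 8 arrays jointly, values were taken to log2, and duplicate arrays were averaged. Groups were compared by limma (lmFit, eBayes), without covariates, on 11651 probes that passed a detection p-value of 0.01 somewhere among the arrays. P-values were adjusted by Benjamini and Hochberg over these probes, and calls needed a 1.3-fold change and an adjusted p below 0.002. Where a gene had several detected probes, the brightest by mean log2 signal stood for it. The number of samples, 3 in each group, limits the precision.

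Every detected gene of the set could be named. Full values were given for any called gene, for the highest and lowest value of each family, for the best-known family members and, of the other lists, for called genes with Hsf1 and Bag3. Other list genes were named after their values were seen. The genes and lists were chosen with earlier results of these data known. Symbols are those of the table, and all 58 are current in RefSeq. Alternative fits used normexp correction (offset 16), median scaling, cyclic loess, stricter or no detection filter, only array A or only array B of duplicates, sample as a random block, a robust trended eBayes, a replicate block, other cutoffs, and each sample left out. Scripts were tested on simulated data. Versions were limma 3.58.1 (R 4.3.3), numpy 2.4.6, pandas 2.3.3 and matplotlib 3.10.9 (Python 3.11.15).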

Additional observations from a re-analysis of the deposited data

How the results depend on the processing

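Across background correction, normalization, detection filters, choice of arrays, variance model, replicate block and cutoffs, the set gave 0 genes called lower and 0 called higher, except that Hspb1 made 1 called lower with array A alone and without control 3. Leaving out a sample in turn, the genes called lower ranged from 0 to 1, and the TRiC and prefoldin genes called higher from 0 to 1, the latter Pfdn4 without moR-21 sample 1. At a fold change over 1.5 the co-chaperones called lower fell to 0, since Bag3 and Sec63 lie under it, and under normexp correction they rose to 3 with Fkbp5. With Hsph1 and Dnajc24 counted, the genes called lower went from 2 to 1 under median scaling, and to 3 with array A alone or without control 3. Genes with an adjusted p under 0.05 numbered 8 to 12 across the alternatives. Genes without an adjusted p under 0.05 that gained one when a sample was left out were Dnajb2, Hspe1, Dnajc10, Dnajc3, Dnajc4, Hspbap1 and Hspa12b. Signal near background limits the dim genes, and normexp correction moved the count of intervals within a 1.3-fold change from 35 to 24.

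The other sign appeared in genes near 0. No gene of the set was called in the main fit, so these sign changes say nothing about called genes. Hspa8 was 0.053 under median scaling and 0.030 under cyclic loess. With array A alone Dnajb13 was 0.0042, Dnajb4 -0.0091, Dnajc17 -0.0079, Dnajc28 0.0022, Dnajc7 0.0030 and Dnajc8 -0.0027. Hspa4 was 0.016 with array B alone and 0.0057 with sample as random block, where Hspb2 was 0.018. Leaving out a sample in turn, the log2 fold change ranged from -0.078 to 0.019 for Hspa4, from -0.027 to 0.0073 for Dnajb13, from -0.015 to 0.037 for Dnajb4, from -0.057 to 0.017 for Dnajb6, from -0.10 to 0.0027 for Dnajc16, from -0.028 to 0.064 for Dnajc17, from -0.067 to 0.034 for Dnajc18, from -0.028 to 0.022 for Dnajc28, from -0.036 to 0.047 for Dnajc8, from -0.12 to 0.0027 for Hspd1 and from -0.080 to 0.030 for Hspb2. The cause of these shifts was not tested.

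Samples of both groups share replicate numbers, but the labels tie these to no batch, and deviations from the group means correlated by 0.187, 0.044 and 0.060 for numbers 1 to 3, so the numbers were not taken as pairs. Not every sample correlated best with its own number. With the replicate number as a block, 0 genes of the set were called and 12 had an adjusted p under 0.05, against 9 without it.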
